A study of Mus musculus with 16 samples.

Results

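The genes described here are 37 genes of adipocyte identity, lipid droplets, and fatty acid and triglyceride synthesis, chosen by gene name from the 54532 genes of an RNA-seq table of mouse aortas. All 37 names were found, each with a single Ensembl gene ID. Adipocytes store fat as triglyceride in lipid droplets, coat the droplets with perilipins and CIDE proteins, make fatty acids from citrate, release them through lipases, and secrete hormones such as adiponectin and leptin. The aorta lies in perivascular fat, which in rodents has white and brown character, so fat left on a sample adds adipocyte RNA to that of the wall. Smooth muscle and endothelial cells of the wall also express part of these genes.

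The mice were Apoe-/- males of strain C57BL/6j, 8 to 12 weeks old, and both groups carried the Apoe deletion, which raises plasma cholesterol. Osmotic pumps delivered saline (0.9% sodium chloride, 8 libraries) or angiotensin II (Ang II, a vasoconstrictor peptide hormone, 1000 ng per kg per min, 8 libraries). After 7 days the aorta was taken with the adventitia removed, and its RNA was sequenced. The study's title names the glutamine transporter SLC1A5 and smooth muscle cell homeostasis in aortic aneurysm and dissection, and the comparison asks how Ang II changes gene expression in the wall. The labels name no separate mouse for each sample, and the p-values therefore reflect sample-to-sample spread, part of which may be technical. Values are FPKM (fragments per kilobase of transcript, scaled to the reads of the library), which allow levels of different genes to be compared per length.

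The libraries held 14606864 to 19988730 reads, so a single read in a transcript of 1 kilobase was worth 0.05 to 0.0685 FPKM. Smooth muscle genes were at high levels in every library, as the label aorta implies. The 8 smooth muscle markers summed to 8981 to 15345 FPKM with saline and 6315 to 10716 FPKM with Ang II. Of these markers 4 fell with Ang II, among them Myh11, the smooth muscle myosin heavy chain (log2 fold change -0.88), and their part in the calls below was not tested. Saline 7 and 8 stood apart from the other saline libraries, with chi-square values per degree of freedom of 109.7 to 274.2 against them, where those 6 gave 21.2 to 160.0 among themselves. Saline 2 stood apart as well, with 97.1 to 160.0 against Saline 1, 3, 4, 5 and 6, which gave 21.2 to 51.25 among themselves. Saline 2 and 8 were also among the libraries of highest Adipoq described below. In bulk tissue, fewer cells of a type and less RNA per cell cannot be told apart.

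Across the 34 genes that passed the filter of a mean of 0.5 FPKM over the 16 libraries, 11 fell with Ang II, 23 did not pass the test and none rose. The test was limma on log2(FPKM + 1), fitted over 15007 genes with Benjamini-Hochberg adjustment at 0.05. At an unadjusted p under 0.05 limma had 13 of the 34 lower and 0 higher, and a Wilcoxon rank-sum test likewise called 0 higher. The 11 genes are 32.4% of those tested, against a background of 24.9% of all tested genes called lower and 9.54% called higher. The median log2 fold change of the 34 genes was -0.76, and that of all tested genes -0.12. Scaling libraries by median ratios moved the latter to -0.002 and the background to 14.1% lower and 15.0% higher; 9 of the 34 genes then passed as lower, with Lipe and Agpat2 lost, and none as higher.

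The genes fell into kinds that differed in how they varied between libraries of the same group. Genes at high levels in every library, such as Slc2a4, Plin4 and Pnpla2, had a coefficient of variation (SD over mean) of 17.1%, 32.0% and 26.6% among the 8 saline libraries. Genes best known from adipocytes, such as Adipoq, Plin1, Cidec and Ucp1, had 99.8%, 108%, 93.9% and 145%. A large spread within a group itself makes a gene less likely to pass the test.

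**Figure D1:**
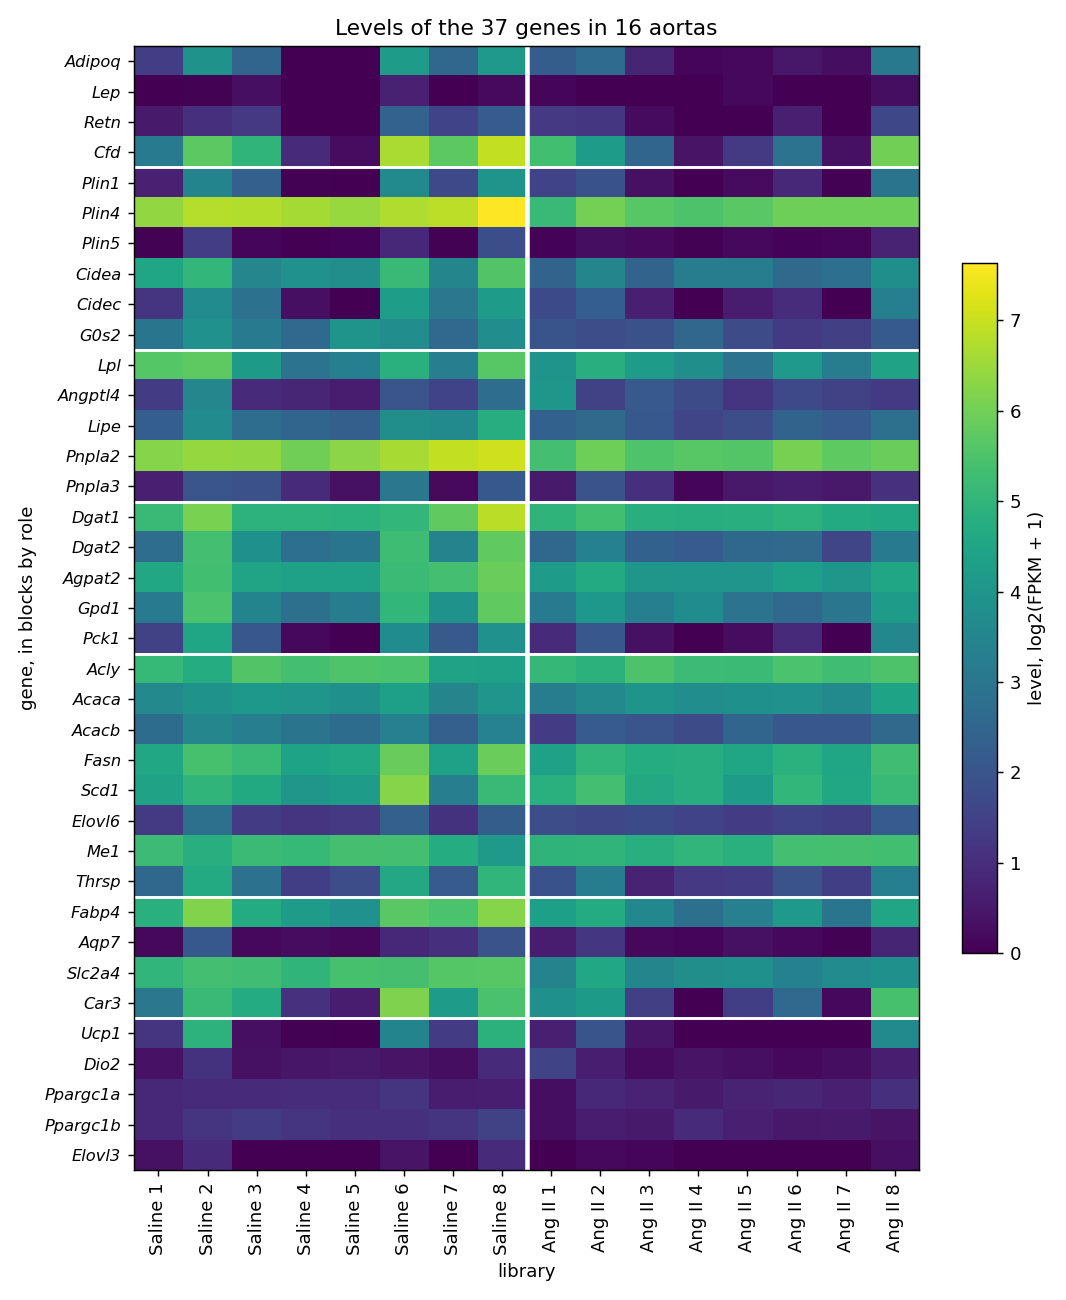
Level of each of the 37 genes, as log2(FPKM + 1), in each of the 16 libraries, with white lines between roles and between the groups. Adipoq, Plin1, Cidec, Pck1 and Ucp1 are bright in Saline 2, 6 and 8 and in Ang II 8 and dark in Saline 4 and 5, while Plin4 and Pnpla2 are bright in every library.

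Promoter windows are shown for 4 genes that fell and were expressed in every library (Plin4, G0s2, Pnpla2, Acacb) and for 2 that followed the adipocyte pattern (Adipoq, Plin1), so that their sequences can be compared. RefSeq (GRCm38.p6) windows, from 250 bases before the start of the gene to 50 after it, were matched for 25 of the 37 genes by symbol, and 5 of these have more than 1 window. The windows are chr17:56109733-56110032 (minus strand), chr1:193273139-193273438 (minus), chr7:141454938-141455237 (plus), chr5:114165268-114165567 (plus), chr16:23146286-23146585 (plus) and chr7:79732727-79733026 (minus). Each is written 5′ to 3′ on the strand of its gene. Those of Plin4, G0s2, Plin1 and Acacb lie at starts inside the Ensembl span of the gene, that of Acacb the furthest inside. Capitals mark matches on either strand to 6 motifs, and no marked matches overlap. CCAAT is the site of the factor NF-Y, and GGGCGG is bound by Sp factors. TATAAA is an element of the core promoter, and AGGTCA is the half-site of many nuclear receptors. CACGTG is the site of basic helix-loop-helix factors, and TTGCNNAA resembles the sites of C/EBP factors.
Plin4: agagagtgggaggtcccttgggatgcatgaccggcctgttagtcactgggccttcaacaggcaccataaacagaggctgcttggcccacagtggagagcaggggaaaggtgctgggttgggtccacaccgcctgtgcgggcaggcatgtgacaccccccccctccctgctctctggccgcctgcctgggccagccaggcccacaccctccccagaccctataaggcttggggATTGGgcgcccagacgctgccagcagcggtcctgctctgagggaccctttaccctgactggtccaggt
G0s2: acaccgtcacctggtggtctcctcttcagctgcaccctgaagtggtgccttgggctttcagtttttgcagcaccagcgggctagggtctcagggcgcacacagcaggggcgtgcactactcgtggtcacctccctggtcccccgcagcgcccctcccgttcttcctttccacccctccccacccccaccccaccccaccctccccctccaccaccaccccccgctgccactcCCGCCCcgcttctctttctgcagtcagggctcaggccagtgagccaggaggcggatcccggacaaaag
Pnpla2: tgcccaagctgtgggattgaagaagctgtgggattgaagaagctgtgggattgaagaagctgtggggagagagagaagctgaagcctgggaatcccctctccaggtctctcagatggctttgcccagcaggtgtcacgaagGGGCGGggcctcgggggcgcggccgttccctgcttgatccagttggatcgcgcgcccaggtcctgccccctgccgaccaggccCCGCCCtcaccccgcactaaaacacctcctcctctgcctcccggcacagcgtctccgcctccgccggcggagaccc
Acacb: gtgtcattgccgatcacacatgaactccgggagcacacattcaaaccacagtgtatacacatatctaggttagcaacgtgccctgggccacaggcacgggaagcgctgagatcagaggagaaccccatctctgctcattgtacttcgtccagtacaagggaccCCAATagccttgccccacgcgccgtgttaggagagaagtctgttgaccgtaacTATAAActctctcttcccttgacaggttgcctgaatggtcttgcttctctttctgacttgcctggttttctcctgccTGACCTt
Adipoq: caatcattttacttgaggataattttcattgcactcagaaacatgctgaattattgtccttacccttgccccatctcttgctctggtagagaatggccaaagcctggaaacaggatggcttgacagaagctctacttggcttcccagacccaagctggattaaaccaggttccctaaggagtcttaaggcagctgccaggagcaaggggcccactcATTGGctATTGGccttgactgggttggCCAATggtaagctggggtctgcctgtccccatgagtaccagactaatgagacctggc
Plin1: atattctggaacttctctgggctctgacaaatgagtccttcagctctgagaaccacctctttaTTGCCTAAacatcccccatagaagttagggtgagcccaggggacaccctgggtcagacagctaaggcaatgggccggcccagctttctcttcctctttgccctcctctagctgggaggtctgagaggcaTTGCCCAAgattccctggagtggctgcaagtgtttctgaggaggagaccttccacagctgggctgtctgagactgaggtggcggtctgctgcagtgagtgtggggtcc
CCAAT was in the windows of Plin4 (1 match), Acacb (1) and Adipoq (3), and is present in 37.4% of all 32851 windows of this length. GGGCGG was in those of G0s2 (1) and Pnpla2 (2), and is in 35.7% of all windows. TATAAA and AGGTCA had 1 match each in Acacb (13.6% and 16.3% of all windows). TTGCNNAA had 2 matches in Plin1 (10.8% of all windows), and CACGTG, in 7.15% of all windows, had none in these 6. No motif of this list was in the windows of all 4 genes that fell, and a match describes these letters only.

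Of the hormones and secreted proteins of adipocytes, none passed the limma test, also at an unadjusted p under 0.05 (0 higher, 0 lower). Adipoq encodes adiponectin, the most adipocyte-restricted of these products. Its level was 14.1, 17.1 and 16.5 FPKM in Saline 2, 6 and 8, and 1.61, 4.62 and 5.03 FPKM in Saline 1, 3 and 7. It was listed at 0 in Saline 4 and 5, where 3 reads would be 0.190 and 0.186 FPKM. In the Ang II libraries it was 3.74, 5.40 and 7.55 FPKM in Ang II 1, 2 and 8 and 0.0652 to 0.726 FPKM in the other 5. Each group thus held libraries with many Adipoq reads (up to 265 in Saline 6 and 127 in Ang II 8) and others with almost none. The groups overlapped, with Saline 2, 6 and 8 above all Ang II libraries. The log2 fold change was -1.11 with a 95% confidence interval of -2.52 to 0.31 (limma adjusted p = 0.212).

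Cfd (adipsin, a complement protease secreted by fat) had 0.190 to 120.4 FPKM with saline (median 41.1) and 0.279 to 63.9 FPKM with Ang II (median 5.53), with a log2 fold change of -1.41 and an SE of 1.06. Retn (resistin) was at most 4.23 FPKM and was listed at 0 in 5 libraries, Saline 4 and 5 and Ang II 4, 5 and 7. Lep (leptin) was below the filter: it was listed at 0 in 9 libraries and peaked at 0.611 FPKM in Saline 6, which is 19 reads. Adipoq, Retn and Lep were highest in Saline 6 and Cfd in Saline 8, and all 4 were at or near 0 in Saline 4 and 5.

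**Figure D2:**
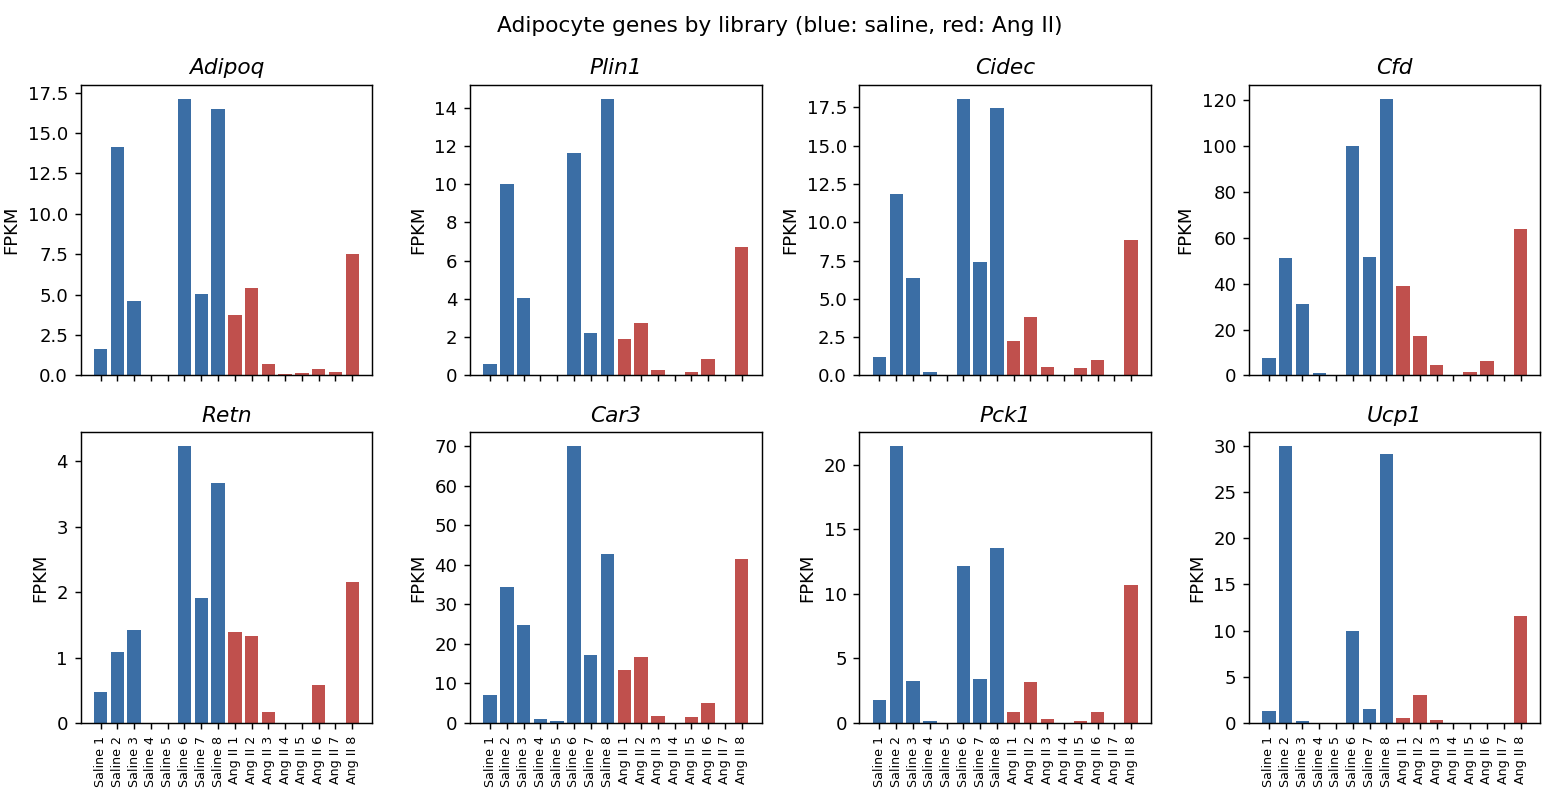
FPKM of 8 adipocyte genes in each library, with saline bars in blue and Ang II bars in red and each vertical axis starting at 0. In every panel Saline 6 and 8 are among the 3 highest saline libraries, Ang II 8 is the highest Ang II library, and Saline 4 and 5 and Ang II 4, 5 and 7 are at or near 0.

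Among droplet coat genes, Plin4, Cidea and G0s2 fell with Ang II, and Plin1 and Cidec did not pass the test. Plin4 (perilipin 4; ENSMUSG00000002831, chromosome 17, 56100591 to 56109803, minus strand, GRCm38) had 83.9 to 198 FPKM with saline (median 107) and 35.1 to 64.6 FPKM with Ang II (median 55.6). No Ang II library reached the saline range, which holds for 5.62% of all tested genes (2.74% had the reverse, all Ang II above all saline). Its mean went from 113 ± 36.1 to 53.3 ± 10.2 FPKM (SD, n = 8 per group), a log2 fold change of -1.05 (SE 0.16, limma adjusted p = 0.00015). In Saline 4 and 5, where Adipoq was listed at 0, Plin4 was at 96.2 and 86.2 FPKM.

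G0s2 (chromosome 1, 193272161 to 193273217, minus strand), whose protein inhibits adipose triglyceride lipase, had 5.07 to 14.4 FPKM with saline (median 10.1) and 1.47 to 4.79 FPKM with Ang II (median 2.60). The groups again did not overlap, and the log2 fold change was -1.47 (SE 0.23, limma adjusted p = 0.000134). The highest saline value, 14.4 FPKM, was in Saline 5, a library without Adipoq reads.

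Cidea (chromosome 18, 67343564 to 67367794, plus strand), a droplet fusion protein abundant in brown fat, had 10.3 to 46.2 FPKM with saline (median 17.8) and 4.36 to 12.8 FPKM with Ang II (median 7.09). Its log2 fold change was -1.38 (SE 0.31, limma adjusted p = 0.00273), and 7 of 8 Ang II libraries were under the saline range. Saline 2, 6 and 8 were its 3 highest saline libraries, yet Saline 4 and 5 still held 13.6 and 12.6 FPKM. Without the 4 libraries in which Adipoq was at least 7 FPKM (Saline 2, 6 and 8 and Ang II 8), its log2 fold change was -0.96 (limma adjusted p = 0.00817). These libraries were picked after seeing the data by the level of Adipoq itself, and 3 of the 4 are saline. Higher log2 fold changes, and so smaller falls, in genes that follow Adipoq are thus built into that choice.

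Its relative Cidec, which enlarges droplets in white fat, behaved otherwise. Cidec had 0 to 18.1 FPKM with saline (median 6.88) and 0 to 8.82 FPKM with Ang II (median 0.779), a log2 fold change of -1.26 with a 95% confidence interval of -2.64 to 0.12 (limma adjusted p = 0.144). Plin1, a perilipin of adipocytes, had 0 to 14.5 FPKM with saline and 0 to 6.74 FPKM with Ang II (log2 fold change -0.99, limma adjusted p = 0.22). Plin5, the perilipin of oxidative tissues, did not pass the filter, and Saline 2, 6 and 8 held 96.0% of its summed saline level.

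Of the lipase genes, Pnpla2 and Lipe fell. Pnpla2 (adipose triglyceride lipase, the first enzyme of triglyceride breakdown; chromosome 7, 141455198 to 141460743, plus strand) had 62.6 to 136 FPKM with saline (median 84.9) and 39.5 to 66.0 FPKM with Ang II (median 50.7). The log2 fold change was -0.78 (SE 0.15, limma adjusted p = 0.000858), and the ranges met only at Saline 4 and Ang II 6. Its inhibitor G0s2 fell as well, so enzyme and inhibitor moved in the same direction.

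Lipe (hormone-sensitive lipase) had 3.89 to 25.9 FPKM with saline (median 8.61) and 2.01 to 6.12 FPKM with Ang II (median 3.94). Its log2 fold change was -0.96 (SE 0.32, limma adjusted p = 0.026), and 15.6% of its exon bases lie in another gene model, 4732471J01Rik. Lipe no longer passed when Saline 2 (limma adjusted p = 0.0508) or Ang II 4 (0.0541) was left out, nor without the 4 libraries of highest Adipoq (log2 fold change -0.53, adjusted p = 0.128).

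Lpl (lipoprotein lipase, which releases fatty acids from circulating triglyceride) had 6.45 to 52.8 FPKM with saline and 6.43 to 26.6 FPKM with Ang II, and did not pass the test (log2 fold change -0.51, limma adjusted p = 0.37). Saline 1 held 47.9 FPKM of Lpl with 1.61 FPKM of Adipoq. The 8 macrophage markers, of which 2 rose with Ang II, summed to 14.7 to 561 FPKM with saline and 46.9 to 588 FPKM with Ang II. Saline 1 had the highest saline sum, and Ang II 1, with 14.5 FPKM of Lpl, had the highest Ang II sum. The part of macrophages in the level of Lpl was not tested. Angptl4, a secreted inhibitor of Lpl, was highest in Ang II 1 (15.4 FPKM) and Saline 2 (10.5 FPKM) and had no direction beyond its spread (0.19, limma adjusted p = 0.755). Pnpla3 had 0.154 to 7.32 FPKM with saline and 0.0738 to 2.90 FPKM with Ang II (-0.60, limma adjusted p = 0.221).

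In triglyceride synthesis, Dgat2 and Agpat2 fell, while Dgat1, Gpd1 and Pck1 did not pass the test. Dgat2, an enzyme of the last step, had 5.6 to 54.0 FPKM with saline (median 11.5) and 2.04 to 9.16 FPKM with Ang II (median 4.99). Its log2 fold change was -1.46 (SE 0.44, limma adjusted p = 0.0161). The saline level rested on a few libraries, since Saline 2, 6 and 8 held 76.0% of the sum, and without the 4 libraries of highest Adipoq the log2 fold change was -0.68 (adjusted p = 0.0761). Agpat2, which makes phosphatidic acid, had 19.7 to 59.8 FPKM with saline and 14.9 to 24.3 FPKM with Ang II (log2 fold change -0.72, SE 0.21, limma adjusted p = 0.0137); without those libraries it was -0.44 (adjusted p = 0.0838). For Agpat2, 3.00% of the exon bases lie in Egfl7, an endothelial gene that fell as well (log2 fold change -1.16).

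Dgat1, the other enzyme of that last step, had 28.3 to 115 FPKM with saline and 22.7 to 38.7 FPKM with Ang II (log2 fold change -0.62, limma adjusted p = 0.0575). Gpd1, which makes glycerol phosphate, had 6.02 to 53.2 FPKM with saline and 5.17 to 17.1 FPKM with Ang II, and 12.97% of its exon bases lie in Gm16537. Pck1, which feeds glycerol synthesis in fat, was listed at 0 in 3 libraries and reached 21.4 FPKM in Saline 2. The high values of Gpd1 and Pck1 were in Saline 2, 6 and 8, and neither passed the test (limma adjusted p = 0.171 and 0.153).

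Genes of fatty acid synthesis from citrate mostly did not pass the test: 1 of 8, Acacb, fell. Acly, which splits citrate into acetyl-CoA, had 19.5 to 46.3 FPKM with saline and 29.1 to 44.5 FPKM with Ang II (log2 fold change 0.20, 95% confidence interval -0.18 to 0.59). Its lowest saline levels, 20.3 and 19.5 FPKM, were in Saline 7 and 8, and without them the log2 fold change was -0.023. Acaca, the cytosolic acetyl-CoA carboxylase, had 10.004 to 18.9 FPKM and 8.37 to 20.3 FPKM (-0.12, interval -0.43 to 0.20). Fasn, the fatty acid synthase, had 19.8 to 58.0 FPKM and 19.7 to 38.2 FPKM (-0.27, interval -0.76 to 0.21). The intervals of these 3 genes reach no further than -0.76 below and 0.59 above, so that larger changes lie outside them. Scd1, the desaturase, had 8.62 to 74.6 FPKM with saline and 17.3 to 39.9 FPKM with Ang II (0.20), Elovl6 a log2 fold change of -0.049 and Me1, which makes NADPH, 0.096. Thrsp (Spot 14, a lipogenic regulator) had 1.69 to 31.6 FPKM with saline and 0.703 to 8.78 FPKM with Ang II (-1.25, limma adjusted p = 0.0811), with the highest values in Saline 2, 6 and 8.

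Acacb (chromosome 5, 114146535 to 114250761, plus strand) encodes the carboxylase at the mitochondrial surface, whose product restrains fatty acid entry into mitochondria. It had 4.08 to 10.5 FPKM with saline (median 7.57) and 1.58 to 5.28 FPKM with Ang II (median 3.21). The log2 fold change was -0.94 (SE 0.20, limma adjusted p = 0.0016), and 6 of 8 Ang II libraries were under the saline range. Its paralog Acaca was thus at similar levels in both groups while Acacb was lower; the difference between the paralogs was not tested.

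Of the genes of uptake and other adipocyte metabolism, Slc2a4 and Fabp4 fell. Slc2a4 (GLUT4, the insulin-responsive glucose transporter of fat and muscle; chromosome 11, 69942539 to 69948188, minus strand) had 30.9 to 49.8 FPKM with saline (median 40.04) and 9.23 to 22.3 FPKM with Ang II (median 12.3). Its mean went from 40.1 ± 6.87 to 12.8 ± 4.17 FPKM, a log2 fold change of -1.60 (SE 0.15, limma adjusted p = 1.12e-06), with the smallest adjusted p of the 34 genes. No Ang II library reached any saline library, and Ang II 2, at 22.3 FPKM, lay apart from the other 7 (9.23 to 13.3 FPKM). The libraries with Adipoq at 0, Saline 4 and 5, held 30.9 and 41.5 FPKM. Skeletal muscle markers were highest in Ang II 5 and Saline 2 (sums of 53.2 and 50.9 FPKM), where Slc2a4 was 13.3 and 39.7 FPKM. The part of fat and skeletal muscle in the level of Slc2a4 was not tested.

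Fabp4, a fatty acid carrier of adipocytes, endothelium and macrophages, had 13.5 to 74.6 FPKM with saline (median 35.8) and 6.09 to 24.7 FPKM with Ang II (median 13.7). The log2 fold change was -1.36 (SE 0.37, limma adjusted p = 0.00871) and without the 4 libraries of highest Adipoq -0.93 (adjusted p = 0.0653). Of 8 endothelial markers 3 fell with Ang II (summed levels 589 to 1486 FPKM with saline and 176 to 1279 FPKM with Ang II); their part in the fall of Fabp4 was not tested. Car3, a carbonic anhydrase abundant in fat, had 0.484 to 70.0 FPKM with saline and 0 to 41.5 FPKM with Ang II (-1.41, limma adjusted p = 0.232). Aqp7, the glycerol channel, was at most 3.31 FPKM (-0.42, limma adjusted p = 0.279).

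Of the thermogenic genes, Ppargc1b fell. Ppargc1b (a coactivator of mitochondrial and lipogenic genes; chromosome 18, 61298136 to 61400431, minus strand) had 0.794 to 1.78 FPKM with saline (median 1.26) and 0.207 to 0.876 FPKM with Ang II (median 0.472). The log2 fold change was -0.60 (SE 0.12, limma adjusted p = 0.00087) and, with a pseudocount of 0.1 in place of 1, which matters at such low levels, -1.24. Its relative Ppargc1a had 0.491 to 1.28 FPKM and 0.209 to 1.07 FPKM (-0.17, limma adjusted p = 0.301).

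Ucp1, the uncoupling protein that defines brown adipocytes, was at 29.9 and 29.1 FPKM in Saline 2 and 8, 9.94 FPKM in Saline 6 and 11.5 FPKM in Ang II 8. It was at most 2.98 FPKM in the other 12 libraries and listed at 0 in 5 of them. The log2 fold change was -1.18 with a 95% confidence interval of -2.83 to 0.47 (limma adjusted p = 0.253). Dio2 did not pass the test (-0.031), and Elovl3 was below the filter, with 0 in 9 libraries.

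**Figure D3:**
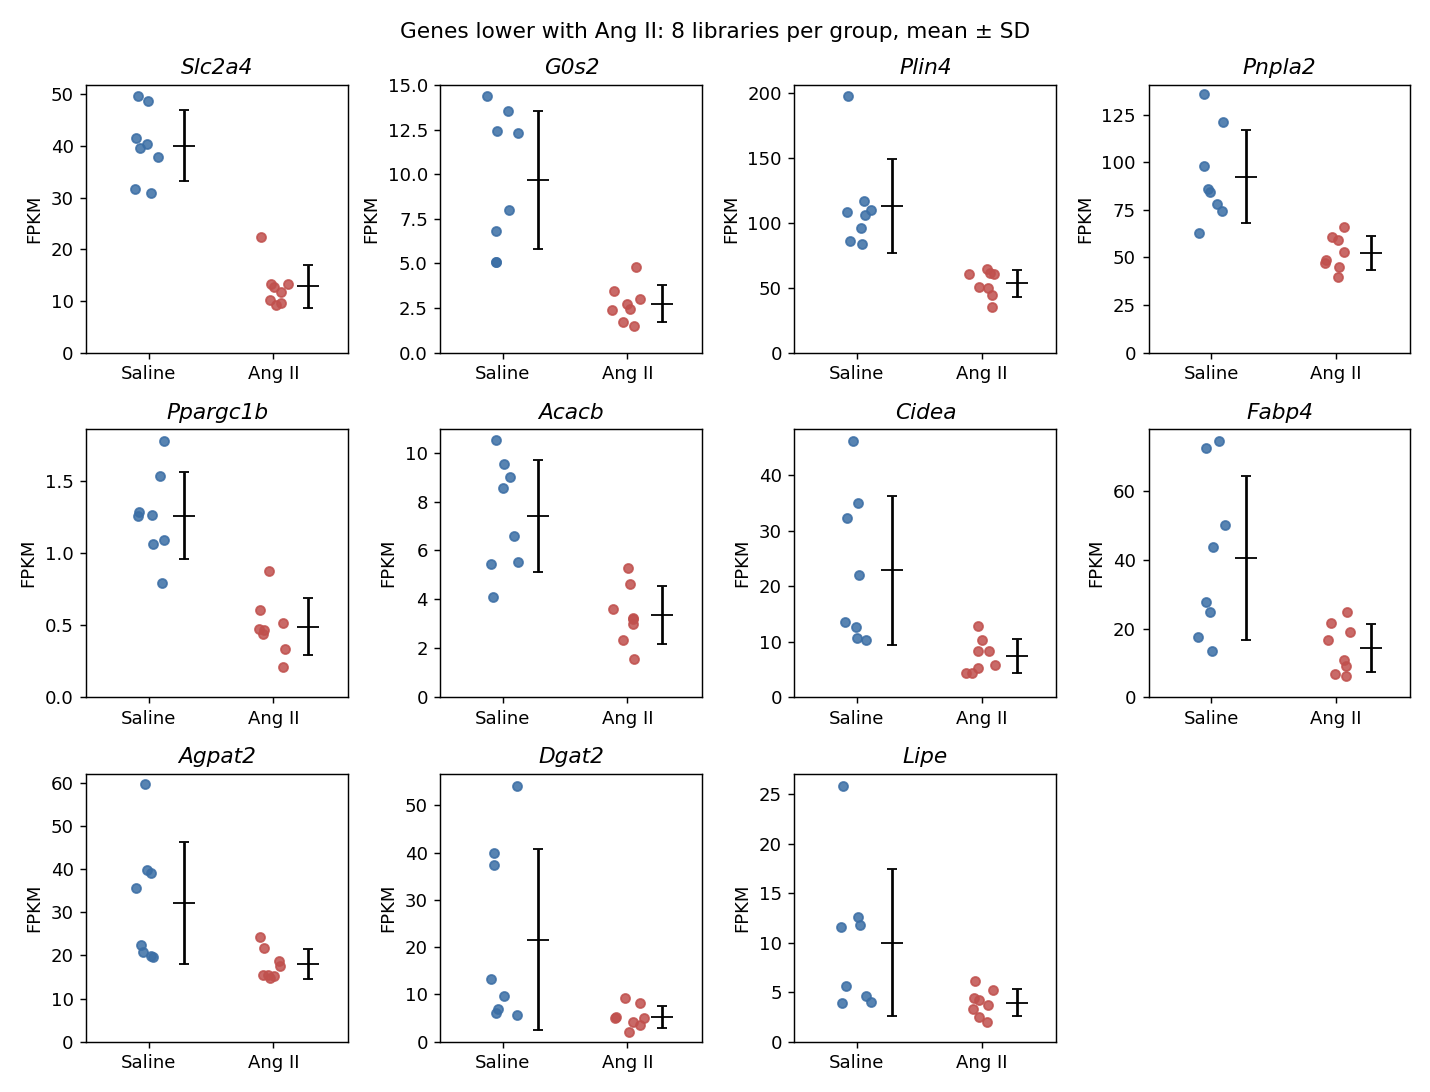
FPKM of the 11 genes that fell with Ang II, 1 point per library, with the mean ± SD of 8 libraries per group in black and vertical axes from 0. Slc2a4, G0s2 and Plin4 show groups that do not overlap, while the saline groups of Dgat2, Lipe and Fabp4 reach from the Ang II range to several-fold above it.

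Levels of adipocyte genes were thus unequal between the libraries of both groups. Saline 2, 6 and 8 were the 3 highest saline libraries for 20 of the 37 genes, and Ang II 8 was the highest Ang II library for 21 of 37. The shares of all tested genes with these libraries highest were not computed, and Saline 2 and 8 also stood apart over the whole table. These counts therefore do not show a trait particular to the 37 genes. Outside the 37 genes, the 11 other adipocyte markers together summed to 48.8 to 91.8 FPKM with saline (median 71.4) and 42.5 to 88.6 FPKM with Ang II (median 71.2). Most of each sum was Sncg, at 37.6 to 74.5 FPKM with saline and 34.2 to 73.3 FPKM with Ang II. Sncg did not follow Adipoq, with 42.9 FPKM in Saline 4 and 37.6 FPKM in Saline 8, so these sums do not measure adipocyte RNA. From the 11 markers, 5 (Adrb3, Mrap, Cyp2e1, Lgals12 and Tusc5), picked after seeing the data, summed to 32.4, 15.9 and 10.7 FPKM in Saline 6, 8 and 2. Cyp2e1 alone made up 24.7, 7.96 and 4.33 FPKM of these sums, and whether the 5 genes are restricted to adipocytes was not tested. The 5 genes summed to 0.611 and 0.141 FPKM in Saline 4 and 5. With Ang II they summed to 0.101 to 9.45 FPKM, with the top in Ang II 8, of which Cyp2e1 was 6.75 FPKM. Of the 11 markers 7 passed the filter and none passed the limma test, with 0 higher and 1 lower at an unadjusted p under 0.05 and a median log2 fold change of 0.013. Of 6 tested brown fat markers 2 fell, namely Cox7a1 (log2 fold change -1.43) and Fabp3 (-0.62). The other 4 did not pass the limma test, also at an unadjusted p under 0.05. Fabp3 did not follow Ucp1, with 42.3 and 44.2 FPKM in Saline 4 and 5 and 26.3 FPKM in Saline 8. The 4 Schwann cell markers were highest in Saline 8, 2 and 6 (sums of 11.7, 8.28 and 5.78 FPKM, against 1.76 to 4.35 FPKM in the other saline libraries and 0.876 to 5.23 FPKM with Ang II), with 1 of 2 tested lower. The 6 lymphocyte markers reached 32.5 FPKM in Saline 6, against at most 5.51 FPKM elsewhere, with 0 of 3 tested called. Of the adventitial fibroblast markers 2 of 7 fell (sums of 115 to 272 FPKM with saline and 71.7 to 228 FPKM with Ang II), and of the cardiac muscle markers 1 of 3 (16.1 to 59.5 and 11.8 to 39.9 FPKM). The part of these cells in the results was not tested.

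With the mean z-score of the 7 tested adipocyte markers as a covariate, all 11 genes still passed as lower, as did Thrsp, against 23.4% of all genes lower in that fit. Adipoq then had a log2 fold change of -0.77, Plin1 -0.69, Cfd -0.90 and Car3 -0.96. The score of the 7 markers followed Adipoq only in part. It was 0.322 in Saline 8 and 0.388 in Ang II 2, where Adipoq was 16.5 and 5.40 FPKM, so this fit cannot fully take out adipocyte RNA. With the 5 picked genes in place of the 7 markers, 10 of the 11 passed, Lipe being lost (limma adjusted p = 0.0655), against 18.6% of all genes lower. In that fit Adipoq had -0.087, Plin1 -0.044, Cfd 0.17 and Car3 -0.050, so how far these genes moved depended on the markers used. The 5 genes were picked after seeing the data, and their sums were highest in Saline 2, 6 and 8, as was Adipoq. Higher log2 fold changes for genes that follow Adipoq, nearer 0 where the gene was lower with Ang II, are thus built into that choice. Among the genes that passed, Dgat2 went from -1.46 to -0.86 with the 5 genes, Fabp4 from -1.36 to -0.86, Agpat2 from -0.72 to -0.49 and Cidea from -1.38 to -1.11. Slc2a4 had -1.55, G0s2 -1.37, Plin4 -0.94, Pnpla2 -0.68, Acacb -0.80 and Ppargc1b -0.61.

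Without the 4 libraries of highest Adipoq, 7 of 32 tested genes fell (Aqp7 and Dio2 no longer passed the filter), which is 21.9%, near the background of 17.8%. These were Slc2a4, G0s2, Plin4, Cidea, Pnpla2, Acacb and Ppargc1b. Over the other alternatives, Lipe was lost in 7 and Agpat2 in 1, and the other 9 genes passed wherever they were tested.

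**Figure D4:**
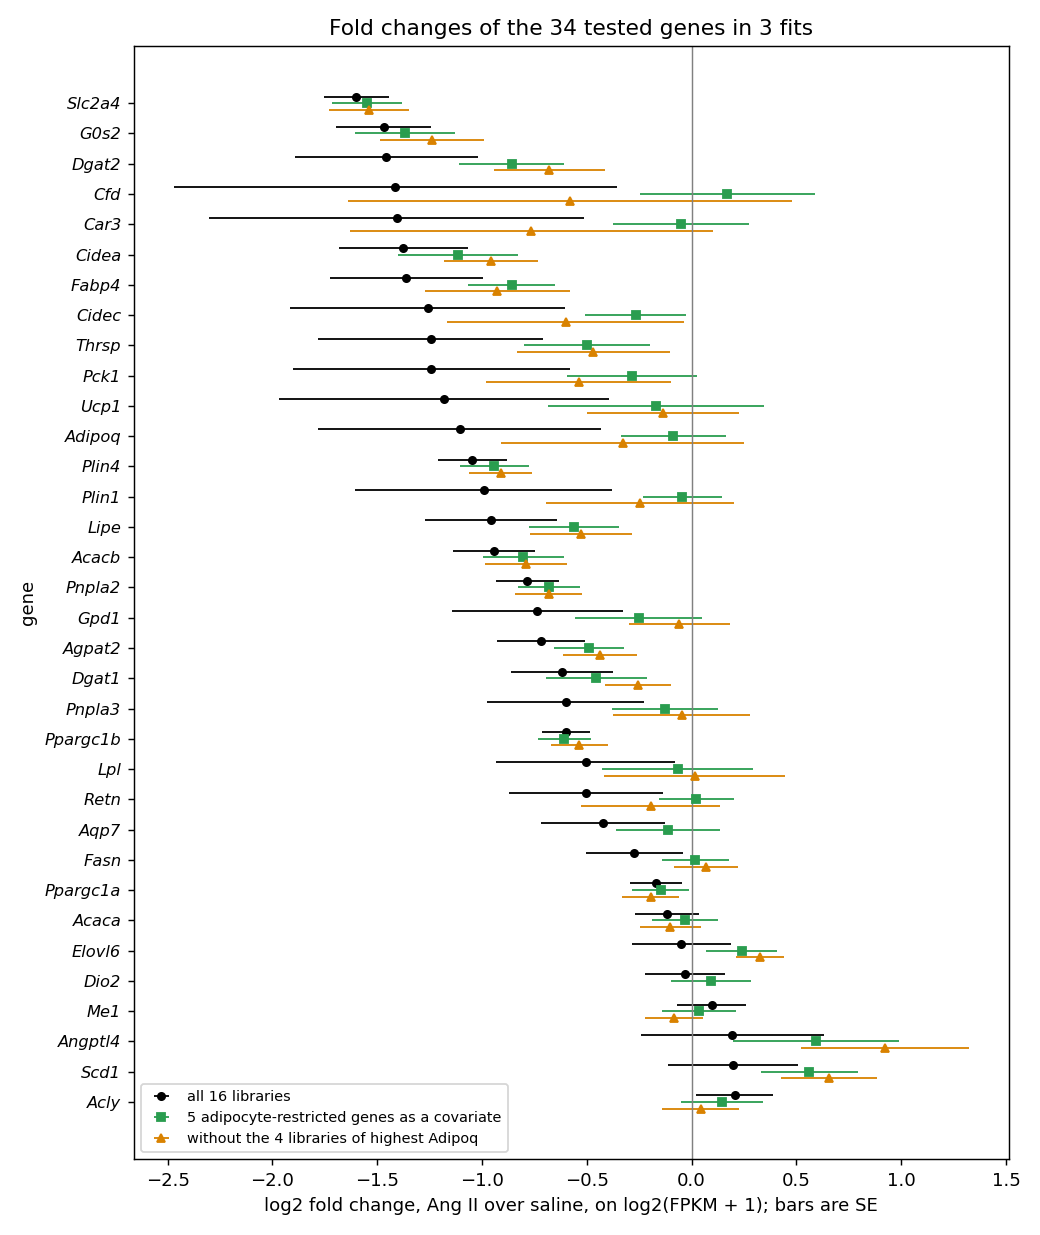
Log2 fold change (Ang II over saline, with SE) of the 34 tested genes in the fit of all 16 libraries (black), with 5 picked adipocyte markers as a covariate (green) and without the 4 libraries of highest Adipoq (orange, not tested for Aqp7 and Dio2). Slc2a4, G0s2, Plin4 and Ppargc1b hold their place in the 3 fits, while Adipoq, Plin1 and Car3 move towards 0 with the 5 genes as a covariate. The 5 genes and the 4 libraries were picked after seeing the data, so upward shifts in genes that follow Adipoq are built in. For Scd1 and Elovl6 the upward shift leads away from 0.

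**Figure D5:**
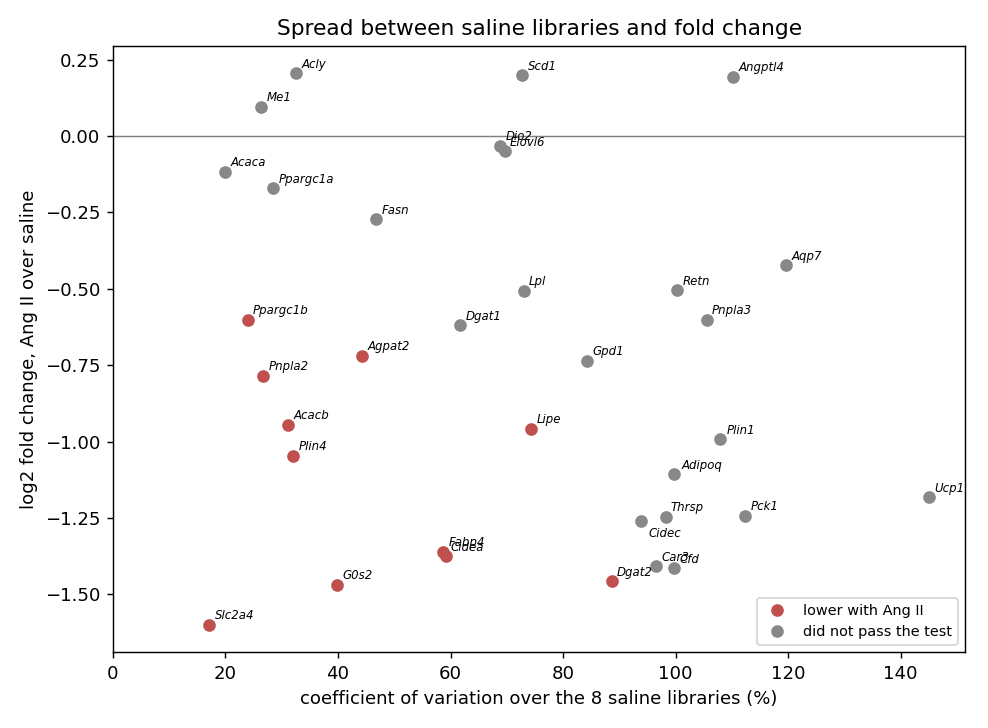
Log2 fold change of each tested gene against its coefficient of variation over the 8 saline libraries, with genes that fell with Ang II in red and the rest in grey. Slc2a4, at 17.1% and -1.60, lies at the lower left, and Cfd and Car3, with similar fold changes but about 100% variation, did not pass the test.

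Of the other genes of the same pathways, outside the 37, 72 passed the filter, 18 fell and 7 rose (median log2 fold change -0.11). These shares are near the background of 24.9% lower and 9.54% higher over all tested genes, so the counts of the lists below say nothing particular to lipid genes. Of 15 lipid regulators 5 fell and none rose (limma, 0 higher also at an unadjusted p under 0.05). Klf15, a transcription factor known to activate Slc2a4, went from 44.9 ± 11.3 to 13.6 ± 7.13 FPKM (log2 fold change -1.78, limma adjusted p = 0.000145). Mlxipl (ChREBP, the glucose-sensing activator of lipogenic genes) went from 14.02 ± 11.2 to 3.01 ± 1.61 FPKM (-1.70, adjusted p = 0.000974). The lipogenic factor gene Srebf1 did not pass the test (-0.18), and neither did the adipocyte regulators Pparg (0.35) and Cebpa (0.29), whose values were higher rather than lower with Ang II.

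Of 10 other droplet genes 3 fell and none rose (0 higher also at an unadjusted p under 0.05), among them Fitm2 (-0.59), needed for droplet formation, and Hsd17b11 (-0.46). Of 17 other genes of triglyceride synthesis and breakdown 3 rose and 2 fell. Mogat2, which makes diglyceride from monoglyceride and is best known from the intestine, rose from 0.268 to 1.38 FPKM with saline (median 0.561) to 2.85 to 6.89 FPKM with Ang II (median 4.90), and all Ang II libraries lay above all saline libraries (log2 fold change 1.86, SE 0.17, limma adjusted p = 6.26e-07). Lpin2, a phosphatidic acid phosphatase, rose (0.54) and its relative Lpin1 fell (-0.70), as did Abhd6 (-0.31).

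Of 19 other genes of fatty acid synthesis and activation 4 rose and 5 fell. Fads3, of the desaturase family, rose from 42.2 ± 5.98 to 68.9 ± 7.03 FPKM (0.70, limma adjusted p = 4.75e-05) and Acsl4, an acyl-CoA synthetase, by 0.59 on the log2 scale, while Acss2, which activates acetate, had -0.60 and Mcat -0.53. Of 11 uptake genes 3 fell and none rose (0 higher also at an unadjusted p under 0.05), among them the insulin receptor gene Insr (-0.60) and the fatty acid transporter gene Slc27a1 (-0.95).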

How the data were processed

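The RNA libraries comprised 8 saline and 8 Ang II samples of aorta, and the authors deposited a single table of FPKM values per gene, with Ensembl IDs and gene names. The submitters' processing notes name the build GRCm38 (mm10). No aligner, counting tool or use of strand is given in the sources used here. Without known strand, reads of overlapping genes cannot be told apart. Reads per library were recovered from the steps of the FPKM values with mean transcript lengths of GENCODE (99.9% of IDs matched), since 1 read has a fixed worth for a gene of given length. No pair of libraries of a group was alike (chi-square per degree of freedom of at least 20.4 over 56 pairs), so all 16 were counted.

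Genes with a mean of 0.5 FPKM or more were tested with limma 3.58.1 in R 4.3.3, on log2(FPKM + 1) with an intensity trend, two-sided, with Benjamini-Hochberg adjustment over 15007 genes at 0.05; log2 fold changes of genes at low levels are understated on this scale. Intervals are at 95% and floors of 3 reads cover counting error only. The 37 genes and all gene lists were chosen with earlier results of these data known. All 37 genes are named. From the other lists, up to 2 genes that rose and 2 that fell were named, by adjusted p and with a mean of at least 1 FPKM; Egfl7, Pparg, Cebpa and Srebf1 were singled out after their values were seen. The alternatives changed the pseudocount, the filter, the scaling, the test, the libraries and the covariates. The fit with the 5 picked adipocyte markers and the fits without libraries of high Adipoq or high macrophage markers were added after seeing the data. Promoter windows came from RefSeq.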

Additional observations from a re-analysis of the deposited data

Results flagged for a closer look

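Within each group of 8 libraries, the highest and lowest value of each tested gene were compared with the nearest other value on the log2(FPKM + 1) scale. Of 68 groups, 4 held a library apart from the rest, and chance gives about 1 in 20. Plin4 was at 198 FPKM in Saline 8, with the nearest saline library at 116 FPKM. Slc2a4 was at 22.3 FPKM in Ang II 2, with the nearest Ang II library at 13.3 FPKM. Angptl4 was at 15.4 FPKM in Ang II 1, with the next at 3.38 FPKM. Dio2 was at 1.96 FPKM in the same library, with the next at 0.561 FPKM.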

How the results depend on the processing

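Over 28 alternatives, the count of genes that rose was 0 in each and the count that fell ranged from 7 to 15 around the 11 reported. The lowest, 7, came from leaving out the 4 libraries of highest Adipoq, where fewer libraries and 32 genes were tested; this alternative was chosen after seeing the data, by the level of a gene of the set. Leaving out each library in turn gave 10 to 13 genes lower and 0 to 0 higher. Dgat1 passed without Saline 3, 4 or 5 or Ang II 2, and Thrsp without Saline 4 or 5 or Ang II 2. Lipe was lost in 8 alternatives and Agpat2 in 2. With the replicate number as a block, 15 genes fell, the added ones being Cidec, Pck1, Thrsp and Ucp1; no label says what the numbers share, and a pairing was not established: same-numbered libraries correlated above 0.1 in 5 of 8 pairs (from -0.25 to 0.39) and matched best with their own number for 2 of 8 saline and 3 of 8 Ang II libraries.

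Sign changes touched only genes that did not pass the test, and the cause was not tested. Under median ratio scaling the log2 fold change of Acaca was 0.019, of Elovl6 0.049 and of Dio2 0.016. With the other adipocyte markers as a covariate, Elovl6 had 0.047 and Dio2 0.0083. With the 5 picked adipocyte markers, Retn had 0.023, Cfd 0.17, Fasn 0.018, Elovl6 0.24 and Dio2 0.093. Without the 4 libraries of highest Adipoq, Lpl had 0.014, Fasn 0.070, Elovl6 0.33 and Me1 -0.083. Without Saline 7 and 8, Acly had -0.023 and Me1 -0.091, and without Saline 1 and Ang II 1 Angptl4 had -0.16. Over single libraries left out, Elovl6 ranged from -0.13 to 0.11, Me1 from -0.028 to 0.15, Angptl4 from -0.11 to 0.46 and Dio2 from -0.069 to 0.023. Depth limits Lep, Plin5 and Elovl3, which rest on few reads.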

Other observations

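The level of brown fat genes relative to Adipoq differed between libraries in which Adipoq was at least 1 FPKM. The ratio of Ucp1 to Adipoq reached 2.12 in Saline 2, 1.76 in Saline 8 and 1.53 in Ang II 8, yet only 0.580 in Saline 6, whose Adipoq level was the highest of all. It was 0.0529 in Saline 3 and 0.155 in Ang II 1. The ratio of Cox8b, a mitochondrial subunit of brown fat and striated muscle, to Adipoq was highest in Saline 8 at 5.96, followed by Saline 2 at 4.75, and it was 1.74 in Saline 6 and 0.440 in Ang II 8. The ratio of Plin1 to Adipoq moved less, between 0.380 and 0.893 over the same 9 libraries. These are ratios of FPKM values, given without a test.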
